A study of Mus musculus with 58 samples.

Results

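Maternal Pcgf1/6 knockout (matKO) and control (CTR) extraembryonic ectoderm (ExE), the trophoblast tissue that lies above the epiblast in the early postimplantation mouse embryo, were compared by total gene expression. The members were taken as all 6 ExE RNA-seq libraries of the study's 58 samples, 2 CTR and 4 matKO, with the reads of the maternal and the paternal allele added together for each gene. Of the 22985 autosomal genes in the table, 12620 had a read in at least 1 of these libraries and 8079 passed the filter on low counts and were tested. Both groups came from a cross of B6.129 mothers with PWK fathers, and the labels name no treatment. The CTR embryos are labelled wild type, and the matKO embryos are labelled as double knockouts of Pcgf1 and Pcgf6 on the maternal side, so that their oocytes lacked both genes and their fathers supplied a PWK copy of each. The labels do not name the Cre driver, the embryonic day or how many embryos went into a library. Nor do they say whether the replicates came from separate litters, so p-values measure only the spread between these libraries. The same table holds 4 morula libraries of the same cross and 4 libraries of fully grown oocytes (FGO) of B6.129 females, each with 2 CTR and 2 knockout libraries, which served for comparison.

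PCGF1 and PCGF6 are Polycomb group RING finger proteins that define 2 of the variant Polycomb repressive complexes 1, named PRC1.1 and PRC1.6. Variant PRC1 places ubiquitin on histone H2A, a mark that helps recruit Polycomb repressive complex 2, which methylates histone H3 at lysine 27 (H3K27me3). In oocytes these marks cover developmental genes and a set of imprinted genes, and part of the maternal H3K27me3 is passed to the embryo, where in extraembryonic tissue it sustains paternal-allele expression of genes such as Sfmbt2 and Gab1. The ExE holds trophoblast stem cells that depend on FGF signals, express Eomes, Elf5, Esrrb and Sox2, and send BMP signals to the epiblast. Its outer part differentiates into the ectoplacental cone, marked by Ascl2 and Phlda2. The comparison addresses what the loss of maternal variant PRC1 leaves in the expression of this tissue.

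The labelled tissue was checked against its markers. Elf5, Eomes, Tfap2c, Bmp8b and Esrrb had reads in all 6 libraries, as did Cdx2, which stayed between 1.83 and 7.09 CPM, the counts of a gene per 1000000 allele-assigned reads of the library. Of the 37 autosomal genes listed for trophoblast stem cells and ExE, 6 (Bmp4, Elf3, Id1, Lin28a, Ly6e and Rspo2) were listed at 0 in every library. Of 32 autosomal visceral endoderm genes, 25 had a read in at least 1 library. The other 7 (Apoa1, Hnf4a, Foxa1, Cer1, Apoc2, Fga and Fgb) were listed at 0 in every library. The blood genes Hbb-y, Hbb-bh1 and Hba-x were also listed at 0 in every library. A listed 0 carries little weight in this table. Of the autosomal genes, 10365 were listed at 0 in all 6 ExE libraries, and 5962 of these had reads in an oocyte library. Vim, Mki67 and Pou5f1 had reads in all 4 oocyte libraries but in no morula or ExE library.

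The ExE libraries held 3397585 to 4361832 summed reads, so that 3 reads, taken as the detection floor, corresponded to 0.688 to 0.883 CPM. One library stood apart. In matKO replicate 3 the maternal allele supplied 35.1% of the autosomal reads (95% exact Clopper-Pearson interval 35.08 to 35.18), against 51.2% to 51.5% in the other 5 libraries. The shift was present on every autosome of that library, at 31.5% to 40.1%. Its total expression profile correlated most closely with CTR replicate 1 (r = 0.980 across genes) and less closely with the other matKO libraries (r = 0.960 to 0.974). The counts over all genes, and the results of some lists and genes, are therefore also given without this library. Maternal reads on the X chromosome also differed among the matKO libraries, at 99.9%, 56.9%, 61.2% and 99.8%, against 95.8% and 96.4% in CTR. On the first principal component of the expression values, which held 51.6% of the variance, the libraries ran from CTR replicate 2 (−42.6) and CTR replicate 1 (−14.6) through matKO replicate 3 (−8.9), replicate 2 (14.3) and replicate 4 (14.6) to matKO replicate 1 (37.1). The part of the maternal share and of the X-linked share in the results was not tested.

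The targeted genes were examined first. Pcgf1 had no read in 5 of the 6 ExE libraries and a single read in matKO replicate 1, so it checks nothing here. Pcgf6 stood at 296 and 265 CPM in CTR and at 199, 177, 208 and 175 CPM in matKO. All 4 matKO values lay below both CTR values, with a fitted log2 change of −0.59 (SE 0.13), which corresponds to 66.4% of CTR. This difference did not pass the test (edgeR quasi-likelihood test with Benjamini-Hochberg adjustment, adjusted p = 0.133), and it passed in DESeq2 (adjusted p = 0.012).

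Across the 8079 autosomal genes, edgeR called 0 genes higher (0%) and 0 lower (0%) in matKO ExE at an adjusted p under 0.05, and the smallest adjusted p was 0.117. At an unadjusted p under 0.05, 612 genes (7.58%) were higher and 500 (6.19%) were lower. Every matKO library lay above both CTR libraries for 1001 genes (12.4%) and below both for 914 (11.3%). Of the genes tested, 270 met the filter on low counts through matKO libraries alone and 30 through CTR libraries alone, so the direction of both sets followed from the filter. In the first set both CTR libraries, and in the second all 4 matKO libraries, lay under the CPM that 10 reads give in a library of median size. Among the 7779 others, 868 (11.2%) lay above and 884 (11.4%) below. DESeq2, run as an alternative, called 135 genes higher (1.67%) and 67 lower (0.829%), and for 195 of these 202 genes the groups did not overlap. Without matKO replicate 3, edgeR called 4 genes higher (0.0499%, Upp1, Fam124a, Gsto1 and Ak4) and 2 lower (0.0249%, Arhgap29 and Mt2), and 702 (8.75%) and 615 (7.67%) at an unadjusted p under 0.05. Without CTR replicate 1 it called 1 gene higher (L1td1) and 1 lower (Dbi), each 0.0119% of those tested, and it called none without any of the other libraries. With no filter on low counts it called 66 higher (0.523%) and 41 lower (0.325%), and with a spread shared with the morula libraries 13 (0.161%) and 8 (0.099%). In data simulated with these library sizes and this spread, the same test recovered 46% of 2-fold and 85% of 4-fold changes. It made 13 false calls among 144, a larger share than the threshold of 0.05. The simulation drew each gene on its own, whereas 51.6% of the variance in the data lay on the first principal component. The rates may therefore not carry over to the real libraries.

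**Figure D1:**
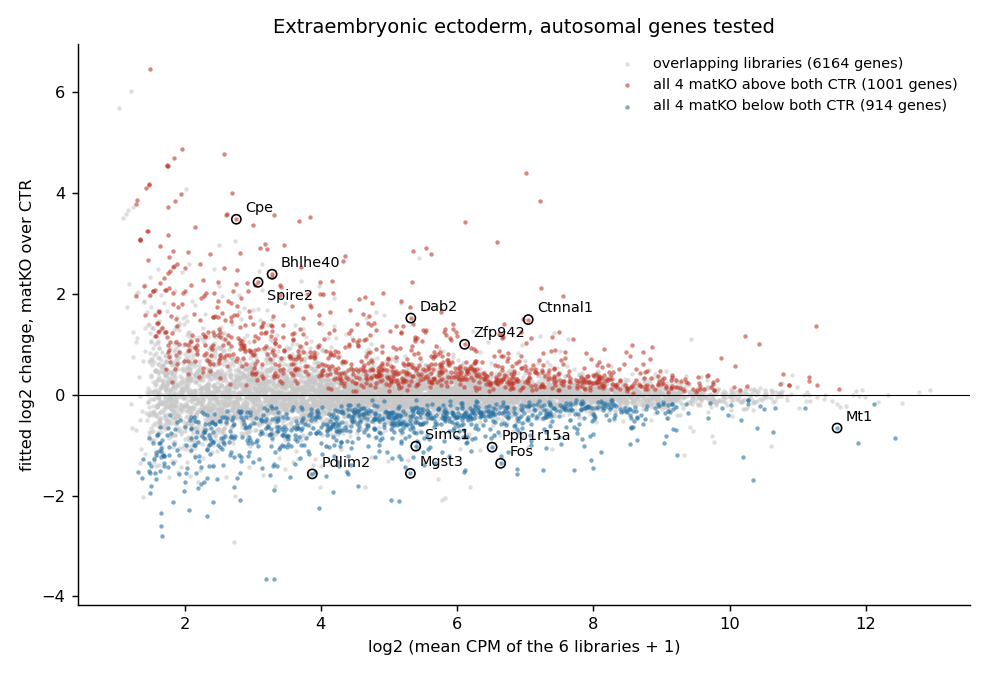
Fitted log2 change in matKO over CTR ExE (y axis) against the log2 of mean CPM plus 1 over the 6 libraries (x axis) for 8079 autosomal genes. Red points are the 1001 genes whose 4 matKO libraries all lie above both CTR libraries, and blue points the 914 genes below both. Circles mark the 12 genes of smallest p among those with at least 5 CPM in the higher group and no overlap between groups.

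The genes of smallest p were taken from those with a mean of at least 5 CPM in the higher group and no overlap between groups. Among them, the 6 higher genes were Ctnnal1, Bhlhe40, Spire2, Zfp942, Dab2 and Cpe. The separation of the groups in these genes followed from this choice. None passed the adjusted threshold in edgeR (adjusted p = 0.117 for each), all passed in DESeq2, and without matKO replicate 3 their adjusted p lay between 0.052 and 0.0564. Ctnnal1 (chr4:56810935-56865375, GRCm38.p6), which encodes an alpha-catenin-like protein, stood at 69.9 and 47.5 CPM in CTR and at 189, 210, 140 and 130 CPM in matKO. Every matKO value was clear of both controls, as the selection required, with a log2 change of 1.49 (SE 0.24). Bhlhe40 (chr6:108660629-108666925), a basic helix-loop-helix repressor, stood at 2.37 and 2.06 CPM in CTR and at 13, 9.99, 9.18 and 15.9 CPM in matKO, a log2 change of 2.39 (SE 0.40). Dab2 (chr15:6299788-6440715), an endocytic adaptor of trophoblast and visceral endoderm, stood at 22.3 and 12.2 CPM in CTR and at 44.5, 61.7, 48.3 and 45 CPM in matKO, a log2 change of 1.52 (SE 0.27). In the latter pair, too, every matKO library lay above both controls. Spire2 (chr8:123332713-123369518), an actin nucleator, was at 2.37 and 1.83 CPM in CTR and at 8.91 to 11.5 CPM in matKO. Zfp942 (chr17:21926960-21962503), a zinc finger gene, was at 39.6 and 40.6 CPM in CTR and at 75.4 to 92.4 CPM in matKO. Cpe (chr8:64592542-64693109) encodes a carboxypeptidase that trims peptide hormones. It stood close to the detection floor in CTR, at 0.711 and 0.688 CPM, and at 13, 4, 8.91 and 7.36 CPM in matKO. Bhlhe40, Spire2 and Cpe were among the genes that met the filter on low counts through matKO libraries alone.

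**Figure D2:**
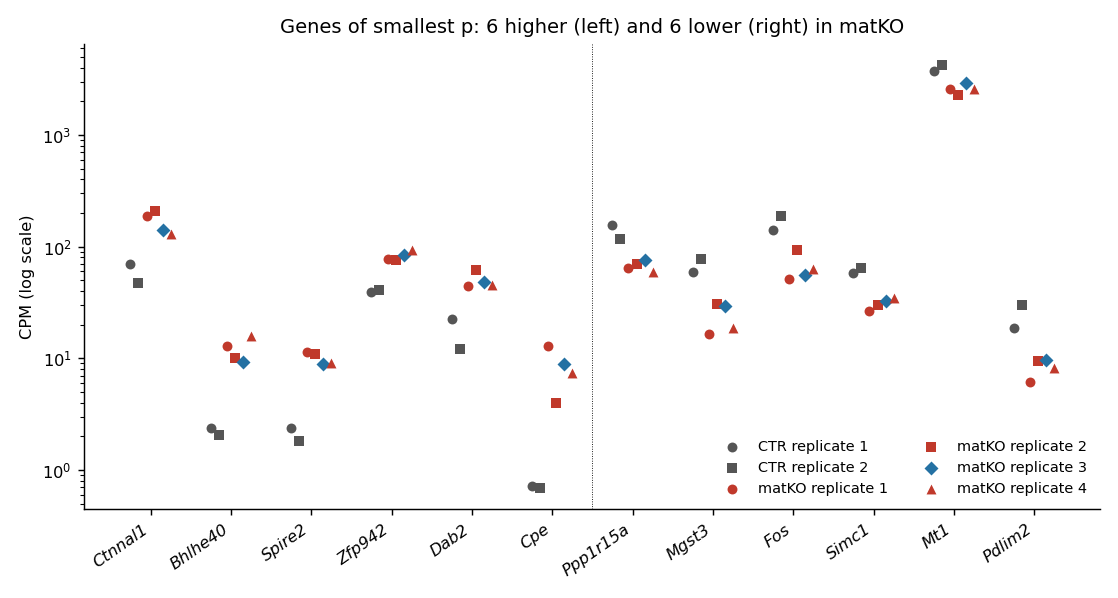
CPM on a log axis for the 6 higher and the 6 lower genes of smallest p (x axis), 1 point per library, with CTR in grey, matKO in red and matKO replicate 3 in blue. The genes were selected so that all matKO libraries, replicate 3 included, lie on one side of both CTR libraries.

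The 6 lower genes with the smallest p, selected in the same way, were Ppp1r15a, Mgst3, Fos, Simc1, Mt1 and Pdlim2. Their adjusted p was 0.117 to 0.120 in edgeR and 0.052 to 0.0614 without matKO replicate 3. All passed in DESeq2. Ppp1r15a (chr7:45522917-45526268), the phosphatase subunit that reverses the translation block of the stress response, stood at 155 and 118 CPM in CTR and at 64, 70.5, 75.9 and 59.5 CPM in matKO. The matKO values were grouped closely below both controls, with a log2 change of −1.04 (SE 0.17). Fos (chr12:85473890-85477274), an immediate early transcription factor, stood at 142 and 188 CPM in CTR and at 51.3, 92.7, 55.6 and 63 CPM in matKO, a log2 change of −1.36 (SE 0.24). Mt1 (chr8:94178883-94180327), a metallothionein that binds zinc and other metals, stood at 3759 and 4226 CPM in CTR and at 2571, 2270, 2921 and 2594 CPM in matKO, a log2 change of −0.66 (SE 0.12). Its neighbour Mt2 stood at 7190 and 8382 CPM in CTR and at 3726, 3751, 5729 and 4322 CPM in matKO. For Mt2 the highest matKO value was that of replicate 3, and the log2 change moved from −0.86 to −1.02 without it. Mgst3 (chr1:167371966-167393841), a glutathione transferase, was at 59.7 and 77.9 CPM in CTR and at 16.4 to 30.5 CPM in matKO. Simc1 (chr13:54503739-54551290), a SUMO-binding protein, was at 57.8 and 64.9 CPM in CTR and at 26.4 to 34.4 CPM in matKO. Pdlim2 (chr14:70162621-70177672), a PDZ and LIM domain protein, was at 18.5 and 30 CPM in CTR and at 6.11 to 9.72 CPM in matKO.

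The promoters of 3 of the lower genes are shown because each is a textbook target of a signal-dependent factor, the metal-responsive factor for Mt2 and CREB or ATF proteins for Fos and Ppp1r15a. They were chosen after the values were seen. Each run is the 250 bases before the RefSeq start (GRCm38.p6), 5′ to 3′ on the strand of the gene. Capitals mark TGCACNC or TGCGCNC on either strand in Mt2, and TGACGT on either strand in the other two.
Mt2, chr8:94172368-94172617, plus strand: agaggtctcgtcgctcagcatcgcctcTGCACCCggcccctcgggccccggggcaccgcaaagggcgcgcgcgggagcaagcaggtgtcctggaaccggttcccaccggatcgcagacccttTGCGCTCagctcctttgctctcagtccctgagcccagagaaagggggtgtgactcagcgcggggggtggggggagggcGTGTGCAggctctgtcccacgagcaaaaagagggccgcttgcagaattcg
Fos, chr12:85473640-85473889, plus strand: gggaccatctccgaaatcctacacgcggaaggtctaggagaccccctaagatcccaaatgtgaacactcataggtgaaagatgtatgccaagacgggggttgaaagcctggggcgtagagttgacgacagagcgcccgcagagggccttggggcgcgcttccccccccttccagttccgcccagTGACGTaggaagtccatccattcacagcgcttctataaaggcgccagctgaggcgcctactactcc
Ppp1r15a, chr7:45526269-45526518, minus strand: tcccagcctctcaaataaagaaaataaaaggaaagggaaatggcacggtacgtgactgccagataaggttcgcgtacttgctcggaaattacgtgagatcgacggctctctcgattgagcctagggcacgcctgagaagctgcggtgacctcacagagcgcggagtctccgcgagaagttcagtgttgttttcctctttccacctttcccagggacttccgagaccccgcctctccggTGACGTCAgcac
The Mt2 window held 3 such matches. The Fos window held 1 match, and the Ppp1r15a window held 2 that overlap on opposite strands. Among 5152 tested genes with a single listed promoter, 32.5% held TGCACNC or TGCGCNC and 11.7% held TGACGT in a window of the same length. TGACGT was present in 12.2% of the 41 promoters available for genes lower in DESeq2 and in 6.33% of the 79 available for genes higher. CACGTG, the E-box that MGA and MAX partners of PCGF6 can bind, was in 9.36% of all promoters, 8.86% of the higher and 7.32% of the lower ones. GCGGGAA, a core of the E2F6 site, was in 7.55%, 2.53% and 9.76%. These are counts of letters and show no binding.

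Regulators of trophoblast stem cells and ExE lay on both sides of the controls. Of 27 tested genes in this list, every matKO library was above both controls for 11 and below both for 5, against 12.4% and 11.3% of all genes. The median log2 change was 0.46, against 0.00 over all genes tested. Sox2 and Spry4 met the filter through matKO libraries alone, and among the 25 others 9 were above and 5 below, with a median of 0.44. No member passed in edgeR, and DESeq2 passed 3 higher (Ddah1, Tead4 and Bmp8b) and 2 lower (Krt18 and Tfap2c). Tead4, a transcription factor of the trophectoderm, stood at 30.8 and 16 CPM in CTR and at 70.6, 57, 45.6 and 52.1 CPM in matKO, a log2 change of 1.25 (SE 0.27). Bmp8b, a ligand that the ExE sends to the epiblast, stood at 136 and 111 CPM in CTR and at 287, 242, 194 and 180 CPM in matKO, a log2 change of 0.85 (SE 0.19). The adjusted p in edgeR was 0.145 for Tead4 and 0.155 for Bmp8b, and 0.0627 and 0.0661 without matKO replicate 3. The core stem cell factors showed wide spreads. Eomes stood at 104 and 24.5 CPM in CTR and at 348, 284, 168 and 198 CPM in matKO. Esrrb stood at 30.8 and 2.06 CPM in CTR and at 231, 183, 51.3 and 71.2 CPM in matKO. Elf5 stood at 307 and 383 CPM in CTR and at 512, 499, 529 and 411 CPM in matKO. In all 3 genes the groups did not overlap, and for Eomes and Esrrb CTR replicate 2 was the lowest library and matKO replicate 1 the highest. The edgeR adjusted p was 0.318 for Eomes, 0.391 for Esrrb and 0.247 for Elf5. Sox2, another stem cell factor, stood at 2.13 and 0 CPM in CTR and at 23.2, 15, 3.24 and 10 CPM in matKO. Cdx2 overlapped between the groups.

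The 5 members below both controls were Tfap2c, Hand1, Gata2, Krt8 and Krt18. Hand1, a regulator of giant cells, stood at 40.8 and 61.2 CPM in CTR and at 13.9, 21.5, 35.4 and 37.4 CPM in matKO. Gata2 stood at 33.4 and 51.8 CPM in CTR and at 5.13, 18.5, 33.2 and 18 CPM in matKO, where replicate 3 lay just below the lower control. Tfap2c, needed for trophoblast maintenance, stood at 494 and 598 CPM in CTR and at 157, 270, 404 and 309 CPM in matKO, with adjusted p = 0.305 in edgeR and 0.024 in DESeq2. Gata3, of the same family as Gata2, lay above both controls, at 18.7 and 16.5 CPM in CTR and at 24, 28.5, 26.5 and 20.6 CPM in matKO. Cdh1, Cdh3 and Ets2 overlapped between the groups. Leaving out matKO replicate 3 gave 12 members above and 7 below both controls among 27 tested, against 17.8% and 16.7% of all genes.

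The ectoplacental cone list had 6 tested genes out of 34, and 5 of the 6 had a negative log2 change, with a median of −1.06. In 4 of them, among which were Ascl2, Phlda2 and Cited2, every matKO library was below both controls, against 11.3% of all genes. The only tested member with a positive change, Flt1, met the filter through matKO libraries alone. Ascl2, which the spongiotrophoblast requires, stood at 353 and 464 CPM in CTR and at 68.2, 162, 219 and 232 CPM in matKO. Phlda2, an imprinted gene that restrains placental growth, stood at 1798 and 2966 CPM in CTR and at 360, 975, 1183 and 492 CPM in matKO. Cited2, a transcriptional coactivator, stood at 59 and 108 CPM in CTR and at 15.9, 36.5, 52.9 and 29.1 CPM in matKO, and it alone of the list passed in DESeq2 (adjusted p = 0.022). In each of these 3 genes CTR replicate 2 was the highest library and matKO replicate 1 the lowest. The connexin gene Gjb5 had a log2 change of −0.81 (SE 0.33), and its groups overlapped. In edgeR the adjusted p was 0.341 for Ascl2, 0.323 for Phlda2 and 0.275 for Cited2. The summed level of the 34 genes was 4873 and 6772 CPM in CTR and 1642, 2885, 3920 and 2729 CPM in matKO, where replicate 3 was the nearest to the controls. Of the defining members, 20 were listed at 0 in all libraries, among them Tpbpb, Prl8a9 and most Psg genes, and Tpbpa never passed 0.54 CPM. In a bulk tissue, fewer cells of a type and less RNA per cell cannot be told apart, and the part of cell composition in the results was not tested.

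Later placental cells were represented by 2 lists. Of 13 tested labyrinth and syncytiotrophoblast genes, 0 were above and 4 below both controls (Slc16a1, Slc2a1, Slc7a5 and Cebpa), against 12.4% and 11.3% of all genes, with a median log2 change of −0.20. Slc2a1, a glucose transporter, stood at 87.2 and 110 CPM in CTR and at 48.4, 67.2, 67.5 and 75.3 CPM in matKO. Of 7 tested giant cell genes, 6 had a positive and 1 a negative log2 change, with a median of 0.41. Bhlhe40 was above and Hand1 below both controls, against 12.4% and 11.3% of all genes. DESeq2 passed Bhlhe40 and Mmp9, both higher. Mmp9, a secreted protease, stood at 1.66 and 0.229 CPM in CTR and at 17.1, 7.49, 1.35 and 6.18 CPM in matKO, and overlapped (log2 change 3.05, SE 1.06, edgeR adjusted p = 0.291). Bhlhe40 and Mmp9 met the filter on low counts through matKO libraries alone, and the median of the 5 others was 0.30. The defining giant cell genes Prl3d1, Prl2c2 and Ctsq were listed at 0, and the summed level of this list was 66.6 and 78.4 CPM in CTR and 62.1 to 90.9 CPM in matKO.

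**Figure D3:**
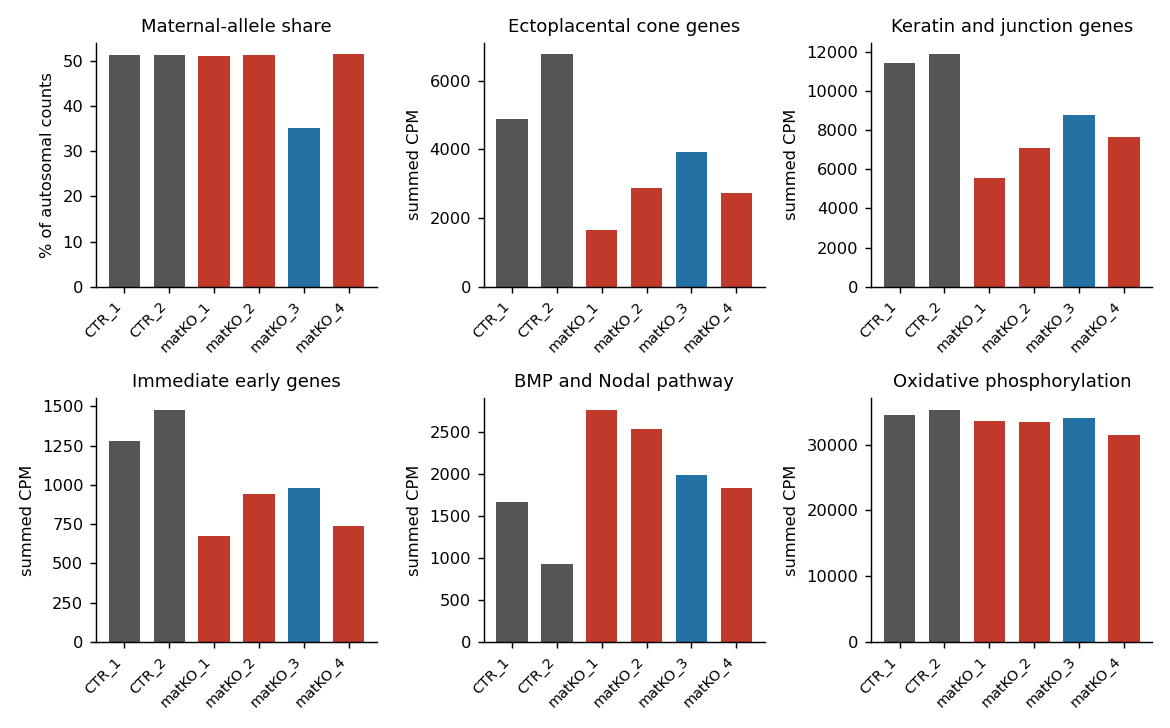
Bars give, for each ExE library (x axis), the maternal-allele share of autosomal reads in percent and the summed CPM of 5 gene lists, with CTR in grey, matKO in red and matKO replicate 3 in blue. The maternal share is 35.1% in matKO replicate 3 only, and the ectoplacental cone sum lies between 1642 and 3920 CPM in matKO against 4873 and 6772 CPM in CTR.

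Keratin and junction genes hold the trophoblast epithelium together. Of 34 tested, 8 were below and 2 above both controls, against 11.3% and 12.4% of all genes, and the median log2 change was −0.40. Without matKO replicate 3 the counts were 13 below and 4 above, against 16.7% and 17.8% of all genes. Col4a1 met the filter through matKO libraries alone, and with replicate 3 included the 33 others held 8 below and 1 above. Krt18, a keratin of simple epithelia, stood at 5456 and 5666 CPM in CTR and at 1951, 2902, 3675 and 3126 CPM in matKO, a log2 change of −0.96 (SE 0.21). Its partner Krt8 stood at 1788 and 1979 CPM in CTR and at 317, 738, 1165 and 1045 CPM in matKO, a log2 change of −1.24 (SE 0.52). Both keratins were lowest in matKO replicate 1 and, within matKO, highest in replicate 3. The desmosomal linker Dsp stood at 172 and 215 CPM in CTR and at 79.9, 95.9, 143 and 102 CPM in matKO. The claudin Cldn7 stood at 106 and 96.1 CPM in CTR and at 42, 54, 67 and 53.3 CPM in matKO. Adjusted p in edgeR was 0.168 for Krt18, 0.389 for Krt8, 0.169 for Dsp and 0.120 for Cldn7, and DESeq2 passed Krt18, Dsp and Cldn7. In the other direction, Sparc, a secreted matrix protein, stood at 31 and 29.1 CPM in CTR and at 93.9, 67, 63.7 and 54.2 CPM in matKO (log2 change 1.18, SE 0.24, edgeR adjusted p = 0.120).

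FGF response and BMP genes included members with large but variable differences. Of 18 tested FGF and ERK genes, 4 were above and 3 below both controls, against 12.4% and 11.3% of all genes, with a median log2 change of 0.44. Spry4, Etv4 and Il17rd met the filter through matKO libraries alone, and the 15 others held 3 above and 3 below, with a median of 0.34. Dusp6, a phosphatase induced by ERK, stood at 17.1 and 1.15 CPM in CTR and at 139, 180, 32.1 and 41.5 CPM in matKO. Etv5, a transcription factor induced by FGF, stood at 2.84 and 0.688 CPM in CTR and at 17.1, 17.5, 2.43 and 6.48 CPM in matKO. For both genes matKO replicates 1 and 2 were far above replicates 3 and 4, and for Etv5 replicate 3 overlapped the controls. The edgeR adjusted p was 0.379 for Dusp6 and 0.292 for Etv5. The receptor Fgfr2 overlapped between the groups, and Fgfr1 stood at 20.9 and 12.2 CPM in CTR and at 22.1 to 31.8 CPM in matKO.

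Of 21 tested BMP, Nodal and TGF-beta genes, 4 were above both controls (Bmp8a, Bmp8b, Id2 and Bambi) and 2 below (Smad2 and Id3), against 12.4% and 11.3% of all genes, with a median log2 change of 0.37. Bmp7, Bmp8a and Chrd met the filter through matKO libraries alone, and the median of the 18 others was 0.05. The ligand Bmp8a stood at 2.37 and 0 CPM in CTR and at 10.5, 12.7, 4.86 and 5.59 CPM in matKO. The pseudoreceptor Bambi stood at 41 and 23.2 CPM in CTR and at 108, 86.2, 52.4 and 62.4 CPM in matKO. Id2, an inhibitor of helix-loop-helix factors, stood at 953 and 356 CPM in CTR and at 1865, 1721, 1259 and 1037 CPM in matKO. Id3, of the same family, lay the other way, at 24.6 and 25.9 CPM in CTR and at 7.09, 15.7, 18.4 and 14.1 CPM in matKO. The edgeR adjusted p was 0.233 for Bmp8a, 0.188 for Bambi, 0.359 for Id2 and 0.290 for Id3. Of 18 tested WNT genes, 4 were above and 4 below both controls, against 12.4% and 11.3% of all genes, with a median log2 change of 0.03. The receptor Fzd1, which met the filter through matKO libraries alone, stood at 0.948 and 0.917 CPM in CTR and at 22.7, 7.49, 4.59 and 5.59 CPM in matKO, with replicate 1 far above the rest. Among 18 tested receptors and ligands of HGF, EGF, insulin and IGF, 1 was above and 0 below both controls. Over all genes the shares were 12.4% and 11.3%, and the median log2 change of the list was −0.03. Igfbp4 and Flt1 met the filter through matKO libraries alone, and the 16 others held 1 above and 0 below.

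**Figure D4:**
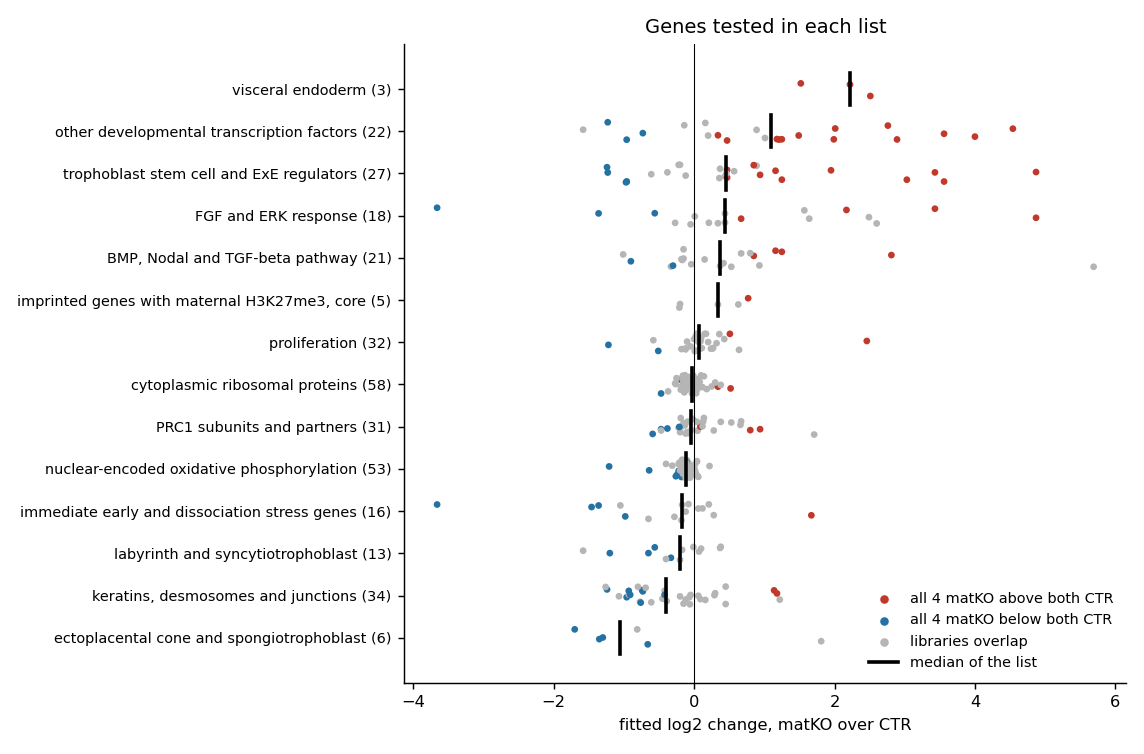
Fitted log2 change in matKO over CTR (x axis) of each tested gene in 14 lists (y axis, number of genes tested in brackets), red where all 4 matKO libraries lie above both CTR libraries, blue where all lie below and grey where they overlap. Black bars are list medians, from −1.06 for the ectoplacental cone to 2.22 for the 3 visceral endoderm genes.

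Developmental transcription factors are textbook Polycomb targets. Of 185 autosomal members outside the Hox clusters, 106 were listed at 0 in all ExE libraries and 22 were tested. Among the tested ones 13 were above and 3 below both controls, with a median log2 change of 1.10. Lhx6, Tbx18, Sox2, Sox21, Zic2 and Meis1 met the filter through matKO libraries alone, so this count and median support nothing about the list. Among the 16 others, 7 were above and 3 below, against 11.2% and 11.4% of all genes not selected in this way, with a median of 0.41. Tbx18, a T-box factor, stood at 0.948 and 0 CPM in CTR and at 8.07, 11.2, 4.86 and 7.95 CPM in matKO. Sox21 stood at 2.13 and 0.917 CPM in CTR and at 19.3, 12.5, 7.56 and 7.06 CPM in matKO. Six2, a homeobox gene, stood at 8.06 and 1.83 CPM in CTR and at 27.9, 10.2, 16.5 and 24.7 CPM in matKO. All 3 passed in DESeq2, with an edgeR adjusted p of 0.120, 0.120 and 0.219. Irx2, at 178 and 142 CPM in CTR and at 60.4, 63.7, 141 and 128 CPM in matKO, was among those below both controls. Of 39 Hox genes, 34 were listed at 0. The 22 autosomal genes of the 2-cell stage were all listed at 0. Of 17 tested germ-line genes, PRC1.6 targets in other cells, 1 was above both controls and 0 below, against 12.4% and 11.3% of all genes. That gene, Fkbp6, stood at 30.8 and 36 CPM in CTR and at 57.7, 46.5, 70.2 and 57.1 CPM in matKO (edgeR adjusted p = 0.206).

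Markers of neighbouring tissues were examined because the dissected tissue could hold some of them. Only 3 of the 32 visceral endoderm genes were tested, and all 3 (Dab2, Amn and Rbp4) were above both controls. Amn, with 10 and 6 reads in CTR, and Rbp4, with 6 and 4, met the filter through matKO libraries alone, so their direction supports nothing. The summed level of the list was 28 and 16.7 CPM in CTR and 95.1, 95.4, 59.4 and 62.7 CPM in matKO. Amn, a subunit of the cubilin receptor, stood at 2.37 and 1.38 CPM in CTR and at 13.9, 11, 3.78 and 7.06 CPM in matKO. The defining genes Afp and Ttr reached at most 1.47 and 4.64 CPM, both in matKO replicate 1. Of 6 tested epiblast and mesoderm genes, 4 were above both controls, against 12.4% of all genes. T and Zic2 met the filter through matKO libraries alone, and 2 of the 4 others were above, among them Pou3f1, at 7.58 and 0.459 CPM in CTR and at 46.7, 23.7, 19.2 and 19.4 CPM in matKO. T, which marks nascent mesoderm, stood at 0.237 and 0.229 CPM in CTR and at 11.5, 3.5, 0.27 and 1.47 CPM in matKO. The epiblast sum was 649 and 387 CPM in CTR and 976, 827, 634 and 783 CPM in matKO, most of it from Dnmt3b, and it overlapped. The sums of yolk sac mesoderm and blood genes, at 64.5 and 73.4 CPM in CTR and 59.2 to 92.7 CPM in matKO, and of decidua genes, at 94.8 and 92.6 CPM in CTR and 92.4 to 117 CPM in matKO, also overlapped. The decidual prolactin Prl8a2 was at 18.3 CPM in matKO replicate 1 and at 0 in the other 5 libraries. The part of these markers in the other results was not tested.

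No gene imprinted through maternal H3K27me3 passed in edgeR, where no autosomal gene at all was called, and no core gene passed in DESeq2. Sfmbt2, a Polycomb gene of placental development, stood at 251 and 246 CPM in CTR and at 370, 280, 449 and 636 CPM in matKO. It was the only one of the 5 core genes whose groups did not overlap (log2 change 0.77, SE 0.29, edgeR adjusted p = 0.317). Jade1, a histone acetylation cofactor, stood at 95.5 and 112 CPM in CTR and at 184, 109, 192 and 176 CPM in matKO, where replicate 2 lay within the controls. Gab1, a signalling adaptor, stood at 339 and 382 CPM in CTR and at 375, 263, 582 and 647 CPM in matKO. Its log2 change of 0.34 (SE 0.37) rested on replicates 3 and 4, and it was 0.21 without replicate 3. Slc38a4, an amino acid transporter, and Smoc1, a secreted matrix protein, had log2 changes of −0.20 (SE 0.28) and −0.21 (SE 0.30), and that of Slc38a4 turned to 0.22 without CTR replicate 2. Among 16 tested genes of the wider list, 4 were above both controls (Sfmbt2, Sox21, Mbnl2 and Sh3gl3) and 0 below, against 12.4% and 11.3% of all genes, with a median of 0.63. Sox21, Bmp7 and Flt1 met the filter through matKO libraries alone, and the 13 others held 3 above and 0 below, with a median of 0.34. Without matKO replicate 3, 7 of 16 tested were above and 0 below, against 17.8% and 16.7% of all genes. That count was not split by the route through the filter. Sh3gl3 stood at 7.11 and 4.13 CPM in CTR and at 38.1, 21.7, 14 and 18.2 CPM in matKO. DESeq2 passed 2 genes of the wider list, Sox21 (DESeq2 adjusted p = 0.0014) and Sh3gl3 (DESeq2 adjusted p = 0.0016).

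Among genes imprinted through DNA methylation, 20 mainly maternally expressed genes were tested, and 1 was above and 5 below both controls, against 12.4% and 11.3% of all genes. The 5 were Phlda2, Cdkn1c, Ascl2, Slc22a18 and Osbpl5, which all belong to the Kcnq1 domain of distal chromosome 7. Cdkn1c, a cell cycle inhibitor, stood at 153 and 164 CPM in CTR and at 44.2, 87.2, 89.9 and 56.8 CPM in matKO, a log2 change of −1.22 (SE 0.27, edgeR adjusted p = 0.160, 0.0564 without matKO replicate 3). Slc22a18, a membrane transporter, stood at 26.3 and 45.4 CPM in CTR and at 7.33, 16.7, 18.6 and 6.77 CPM in matKO. In Nap1l4, Tssc4 and Th, the other tested genes listed for this domain, the groups overlapped, with log2 changes of 0.01, −0.10 and −1.12. Kcnq1ot1, the paternal noncoding RNA of the domain, stood at 71.8 and 31 CPM in CTR and at 123, 47.7, 135 and 69.2 CPM in matKO, and overlapped. Of 18 tested paternally expressed genes, 3 were above and 3 below both controls, against 12.4% and 11.3% of all genes. Dlk1 and Nnat met the filter through matKO libraries alone, and the 16 others held 2 above and 3 below. Mest, a growth-promoting gene, stood at 19 and 6.65 CPM in CTR and at 74.8, 46, 37.3 and 28.3 CPM in matKO (log2 change 1.85, SE 0.50, edgeR adjusted p = 0.209, DESeq2 adjusted p = 0.0015). H19 and Igf2 overlapped between the groups.

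No gene of the Polycomb machinery passed in edgeR. Of 31 tested PRC1 genes, 3 were above and 4 below both controls, against 12.4% and 11.3% of all genes, with a median log2 change of −0.04. The catalytic subunit gene Rnf2 had a log2 change of 0.05 and overlapped. Bmi1, the PCGF of a canonical PRC1, stood at 15.9 and 8.02 CPM in CTR and at 24.9, 16.5, 19.7 and 31.8 CPM in matKO. Pcgf5, a variant subunit, stood at 400 and 362 CPM in CTR and at 182, 264, 319 and 356 CPM in matKO. Of 9 tested PRC2 genes, Eed was above and Phf1 below both controls, against 12.4% and 11.3% of all genes. The median was 0.03, and Phf1 had only 5 to 15 reads per library. Eed, which binds H3K27me3, stood at 133 and 78.6 CPM in CTR and at 235, 196, 170 and 181 CPM in matKO (log2 change 0.87, SE 0.20, edgeR adjusted p = 0.168, DESeq2 adjusted p = 0.0064). Of 11 tested H2A deubiquitinase genes and cofactors, 2 were above and 3 below both controls, against 12.4% and 11.3% of all genes. Usp22, among those below, stood at 74.2 and 97.9 CPM in CTR and at 47.2 to 60 CPM in matKO. Of 19 tested genes of DNA methylation, 2 were above and 2 below, against 12.4% and 11.3% of all genes. Dnmt3l, a cofactor of the de novo methyltransferases, stood at 102 and 115 CPM in CTR and at 190, 143, 225 and 264 CPM in matKO (edgeR adjusted p = 0.175, DESeq2 adjusted p = 0.0096).

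Immediate early and stress genes included several that lay lower. Of 16 tested, 4 were below both controls (Fos, Egr1, Gadd45g and Klf6) and 1 above (Nr4a1), against 11.3% and 12.4% of all genes, with a median log2 change of −0.17. Egr1 stood at 38.4 and 8.02 CPM in CTR and at 2.93, 3.25, 0.54 and 0.294 CPM in matKO, so the control libraries themselves differed widely. Nr4a1 met the filter through matKO libraries alone. Klf6 stood at 258 and 284 CPM in CTR and at 84.3, 156, 194 and 129 CPM in matKO. Dusp1 and Zfp36, which are also induced by handling, overlapped between the groups. Of 11 tested metallothionein and zinc response genes, 3 were below both controls (Mt1, Mt2 and Hmox1) and 0 above. Over all genes the shares were 11.3% and 12.4%. In the list, 5 members had a positive and 6 a negative log2 change, with a median of −0.03. Of 20 tested p53 targets, 5 were above and 2 below, against 12.4% and 11.3% of all genes. Ccng1, among those above, stood at 128 and 146 CPM in CTR and at 163, 234, 247 and 209 CPM in matKO. Plk2, a kinase among those below, stood at 17.8 and 44.2 CPM in CTR and at 4.89, 9.49, 11.1 and 1.18 CPM in matKO (log2 change −2.25, SE 0.66, edgeR adjusted p = 0.247, DESeq2 adjusted p = 0.0096). Of 28 tested amino acid and endoplasmic reticulum stress genes, 3 were above and 7 below, against 12.4% and 11.3% of all genes. Their median was −0.13. Ddit4 met the filter through matKO libraries alone, and the 27 others held 2 above and 7 below. Of 15 tested interferon genes, 1 was above and 3 below, against 12.4% and 11.3% of all genes. Ifitm1, an antiviral membrane protein, stood at 2.84 and 0.459 CPM in CTR and at 37.4, 20.2, 10.3 and 9.12 CPM in matKO.

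Lists of growth and metabolism had median log2 changes from −0.11 to 0.26. Of 53 tested nuclear genes of oxidative phosphorylation, 44 had a negative log2 change and 11 were below and 0 above both controls, against 11.3% and 12.4% of all genes. The median was −0.11, and the sums were 34565 and 35351 CPM in CTR and 31476 to 34027 CPM in matKO. Uqcr11 met the filter through CTR libraries alone, and the 52 others held 10 below and 0 above. Among all genes not selected in this way the shares were 11.4% and 11.2%. Of 58 tested ribosomal protein genes, 2 were above and 2 below both controls, against 12.4% and 11.3% of all genes. Their median was −0.02. Of 32 tested proliferation genes, 2 were above and 2 below, against 12.4% and 11.3% of all genes. Their median was 0.07, and Cdk1 had a log2 change of 0.09. Cdk6 and Cdkn2a met the filter through matKO libraries alone, and the 30 others held 1 above and 2 below. Of 31 tested genes of hypoxia and glycolysis, 2 were above and 2 below, against 12.4% and 11.3% of all genes, with a median of 0.05. Ddit4 met the filter through matKO libraries alone, and the 30 others held 1 above and 2 below. Ak4, a mitochondrial adenylate kinase among those above, stood at 73.7 and 51.8 CPM in CTR and at 192, 152, 104 and 159 CPM in matKO. Of 21 tested genes of cholesterol synthesis, 3 were above and 1 below both controls, against 12.4% and 11.3% of all genes. Their log2 changes were positive for 14 and negative for 7, with a median of 0.26. Msmo1, a sterol oxidase, stood at 318 and 312 CPM in CTR and at 486, 372, 608 and 634 CPM in matKO.

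The spread among the matKO libraries was examined next. The median standard deviation of log2 CPM over genes was 0.252 in matKO (n = 4) and 0.193 in CTR (n = 2). A median standard deviation from 2 libraries falls lower than one from 4, so these values do not show a wider spread in matKO. The 5 most variable genes within matKO were Serpinb9e, Vav3, Serpinb9b, Cyp26a1 and Entpd1. Serpinb9e, a trophoblast serpin of a family of close copies among which reads can be split uncertainly, stood at 0.244, 12.7, 110 and 0 CPM in matKO and at 25.8 and 163 CPM in CTR. Entpd1, an ectonucleotidase, stood at 4.16, 27.5, 70.8 and 9.12 CPM in matKO and at 28.7 and 193 CPM in CTR. In both genes matKO replicate 3 lay between the control values and the other matKO libraries lay below both. Cyp26a1, which degrades retinoic acid, stood at 402, 277, 24.6 and 47.4 CPM in matKO and at 18 and 0 CPM in CTR, with replicates 1 and 2 far above the rest.

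The matKO effect in ExE was compared with that in morulae by a test of the difference itself. Of 10793 autosomal genes, 28 had a higher effect in ExE (0.259%) and 6 a lower one (0.0556%) in edgeR at an adjusted p under 0.05. For 23 of the 28 genes the change was above 0 in ExE and below 0 in morulae. For 21 of the 34 the ExE groups did not overlap, against 12.4% above and 11.3% below over all genes tested in ExE. The genes were selected by this difference, which itself favours opposite signs and separate groups, so these counts support nothing more. In Dsc2, a desmosomal cadherin, the morula libraries stood at 89.6 and 77.5 CPM in CTR and at 0.769 and 0.742 CPM in matKO, while ExE stood at 116 and 128 CPM in CTR and at 93.9, 104, 147 and 136 CPM in matKO. The ExE values overlapped, and the difference between the stages was 6.53 on the log2 scale (SE 0.55, edgeR adjusted p = 6.99e-05). Cib2, a calcium-binding protein, was at 96.1 and 86.3 CPM in CTR and 12.3 and 24.5 CPM in matKO morulae, and in ExE at 79.2 and 70.6 CPM in CTR and 155, 115, 111 and 101 CPM in matKO. In Mpnd and Sft2d2, likewise, morula matKO libraries were far below CTR and the ExE groups overlapped. Slc9a3r1, a membrane scaffold, was lower in matKO morulae and at or above the controls in ExE. Dab2 did not differ in morulae, at 1657 and 1645 CPM in CTR and 1533 and 1762 CPM in matKO, and its difference was 1.42 (SE 0.27, edgeR adjusted p = 0.0446).

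Fos, Mt1 and Ppp1r15a were the leading genes in the other direction. Fos stood at 64.1 and 61.1 CPM in CTR and 136 and 111 CPM in matKO morulae, opposite to ExE, with a difference of −2.44 (SE 0.36, edgeR adjusted p = 0.00993). Ppp1r15a stood at 143 and 117 CPM in CTR and 172 and 151 CPM in matKO morulae, with a difference of −1.45 (SE 0.26, edgeR adjusted p = 0.0283). Mt1 stood at 350 and 380 CPM in CTR and 425 and 430 CPM in matKO morulae, with a difference of −0.99 (SE 0.17, edgeR adjusted p = 0.0263). These counts depended on single libraries: without any 1 library they ran from 1 to 52 higher and from 0 to 15 lower. They were 1 and 0 without morula CTR replicate 1 or morula matKO replicate 1, and 3 and 0 without ExE CTR replicate 2. Without ExE matKO replicate 3 they were 52 and 15, without ExE CTR replicate 1 they were 49 and 15, and without ExE matKO replicate 1 or replicate 2 they were 14 and 1 or 11 and 1.

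**Figure D5:**
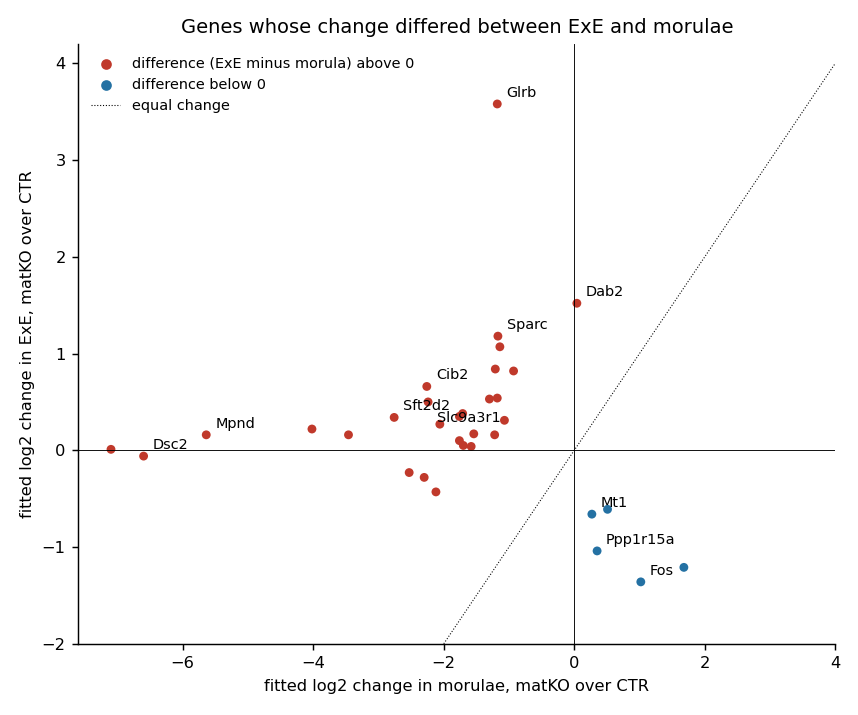
Fitted log2 change in matKO over CTR in morulae (x axis) and in ExE (y axis) for 33 of the 34 genes whose change differed between the stages, red where the difference is above 0 and blue where it is below. Bbs1 has no fitted value in morulae and is left out, and 23 of the 28 red points lie left of and above the zero lines. The genes were selected by this difference, which favours opposite signs.

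The genes called in the earlier stages were followed into ExE. Of 680 autosomal genes higher in knockout FGO (5.24% of those tested there), 359 were tested in ExE, and 17% of these were above and 13.1% below both ExE controls, against 11.9% and 11.2% of the genes tested in both stages, with a median log2 change of 0.10. Of 239 genes lower in knockout FGO (1.84%), 49 were tested in ExE, and 10.2% were above and 8.16% below. Some of these genes met the ExE filter on low counts through matKO libraries alone, such as Sox2 and Tox2 among the higher and Spats2l among the lower ones. Their direction followed from the filter, and the shares without such genes were not computed. Ddah1, an enzyme that breaks down methylated arginine, had a log2 change of 5.74 in FGO and stood in ExE at 338 and 233 CPM in CTR and at 707, 511, 456 and 548 CPM in matKO (log2 change 0.94, SE 0.19). Klf5, a trophoblast transcription factor, had a log2 change of 5.40 in FGO and stood in ExE at 13.3 and 5.96 CPM in CTR and at 54.8, 30.5, 24.6 and 27.1 CPM in matKO. Mt1 went the other way, with a log2 change of 7.08 in FGO and −0.66 in ExE. Of the 11 genes called in matKO morulae (2 higher, 0.0228%, and 9 lower, 0.103%), 9 were tested in ExE, of which Oxct1 was above and Ugdh below both controls and the other 7 overlapped. Oxct1, an enzyme of ketone body use that was lower in matKO morulae, stood in ExE at 265 and 188 CPM in CTR and at 630, 546, 293 and 349 CPM in matKO.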

How the data were processed

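RNA-seq libraries of ExE, morulae and FGO were made from SMART-Seq v4 cDNA with Nextera XT, per the labels' protocols. The submitters' processing notes name STAR 2.7.3, RSEM 1.3.1 and mm10 among their tools, without their role. The authors deposited 1 table of whole-number counts of reads per gene, split for embryos into maternal and paternal reads, and only reads assigned to an allele enter, so genes with few informative positions are undercounted. How reads were assigned is not given in the sources used here. The maternal and paternal counts were summed per library. Of 24077 genes, 23972 matched RefSeq symbols (GRCm38.p6), 81 matched synonyms and 24 matched neither. The counts hold no molecular identifiers, so intervals and floors cover counting error only.

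All genes were fitted with edgeR 4.0.16 (R 4.3.3, TMM factors, filterByExpr with a minimum count of 10, robust quasi-likelihood F test, Benjamini-Hochberg adjustment), with autosomal genes reported and a threshold of 0.05. The ExE fit used the 6 ExE libraries, with 4 residual degrees of freedom. The difference between stages was an interaction term over ExE and morula libraries. Standard errors were taken from the log2 change and its F value. The script was tested on simulated data. DESeq2 1.42.0, other scalings and filters, a spread shared with morulae, the replicate number as a block and leaving out each library were alternatives.

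Genes named are Pcgf1 and Pcgf6, the 6 genes of smallest p in each direction where fewer than 6 were called, the core imprinted genes, up to 4 members of smallest p per list, 5 genes per direction of the stage difference and the 5 most variable matKO genes with a mean of at least 20 CPM. The 6 genes per direction were taken from genes whose groups did not overlap, with a mean of at least 5 CPM in the higher group. Clone names and unnamed gene models were left out. Other genes named to describe a list were chosen after their values were seen. The members and the lists were chosen with earlier results of these data known. Sex chromosomes were left out of the counts of genes, and allelic ratios were used only to describe the libraries. A few genes that these rules would name are not reported here.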

Additional observations from a re-analysis of the deposited data

Results flagged for a closer look

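In matKO replicate 3, the maternal share of autosomal reads, 35.1%, lay apart from the other 3 matKO libraries. Among 138 named genes, 5 had 1 matKO library apart from the other 3 by the same measure, the gap to the nearest library divided by the range, and chance gives this for about 1 in 20. These were Pou3f1 (46.7 CPM), Fzd1 (22.7 CPM) and Pcgf1 (0.244 CPM, a single read) in matKO replicate 1, and Serpinb9e (110 CPM) and Tm7sf2 (17.6 CPM) in matKO replicate 3.

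The matKO effect differed between ExE and morulae, by the interaction test in edgeR, for 9 named genes. The difference on the log2 scale, ExE minus morula, was 6.53 for Dsc2, 5.83 for Mpnd, 3.04 for Sft2d2, 2.86 for Cib2 and 2.67 for Slc9a3r1. It was −8.08 for Bbs1, −2.44 for Fos, −1.45 for Ppp1r15a and −0.99 for Mt1. Bbs1 had no read in either CTR morula library, so its value depends on the prior count and is no measured fold. In matKO morulae, Dsc2 stood at 0.769 and 0.742 CPM and Mpnd at 0.769 and 0 CPM. Both lay under the 3-read floors of 2.31 and 2.23 CPM, so the size of their differences is poorly measured.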

How the results depend on the processing

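The count of 0 genes called in ExE by edgeR held with other scalings, a filter at a mean of 20 counts and autosomal genes alone. It became 66 higher and 41 lower with no filter on low counts, 135 and 67 with DESeq2, and 13 and 8 with a spread shared with morulae. Leaving out 1 ExE library gave 0 to 4 higher and 0 to 2 lower. Between ExE and morulae, 28 higher and 6 lower became 173 and 50 with no filter and 116 and 64 with DESeq2, and ran from 1 to 52 and from 0 to 15 with 1 library left out.

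With the replicate number as a block, edgeR called 461 genes higher and 407 lower in ExE and 329 and 195 between the stages. CTR and matKO libraries share only a number, and only 2 numbers are shared, so that 1 residual degree of freedom is left in ExE. The correlation of deviations was 0.26 and 0.10 for the same-numbered libraries, and 0.32 (CTR 2 with matKO 3) and 0.16 (CTR 1 with matKO 4) among the other pairs.

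With 1 library left out, the log2 change in ExE ran across 0 for 7 named genes: Slc38a4 (−0.53 to 0.22), Cdh5 (−3.87 to 0.60), Dsc2 (−0.17 to 0.06), Mpnd (−0.17 to 0.58), Serpinb9e (−4.46 to 0.27), Serpinb9b (−2.92 to 0.81) and Ezh1 (−0.50 to 0.13). The direction turned without CTR replicate 2 in 6 of them, without CTR replicate 1 in Ezh1, and in Dsc2 also without matKO replicate 1 or 2. Gab1 turned to −0.22 with the replicate block. The summed CPM of giant cell genes, matKO minus CTR, was 0.822, became −0.973 with TMM-scaled libraries and ran from −5.08 to 6.73 with 1 library left out. The cause was not tested. The median of the Hox list could not be had at a mean of 20 counts or without matKO replicate 1, since no gene was left.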
